A study of Mus musculus with 82 samples.

Results

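Epor, Csf1r, Csf2ra, Csf2rb, Csf3r, Il3ra and Tek were taken by name as the receptors, or receptor chains, of cytokines and growth factors that act on blood stem and progenitor cells. They were 7 of the 55376 genes counted. All 7 were measured by mRNA-seq in 30 libraries of 11 groups, and their chromatin was measured by ATAC-seq and ChIP-seq in young and old hematopoietic stem cells (HSCs). The comparisons asked how the receptors differed with age, after knockdown of a short variant of Btaf1 (a TATA-binding protein associated factor) in old HSCs, and between HSCs and their progeny.

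The study used male C57BL/6J mice (CD45.2) as the source of cells. Young HSCs (n = 4 mRNA-seq libraries, each from pooled mice) came from mice of 3 to 4 months and old HSCs (n = 8, each from an individual mouse) from mice of 24 to 26 months, both sorted as lineage-negative Sca-1+ c-kit+ CD34- Flk2- CD150+ marrow cells. Old HSCs transduced with a control lentivirus or with shRNA1 or shRNA2 against the short Btaf1 variant were either kept in culture with added cytokines (n = 2 each) or transplanted into lethally irradiated young female CD45.1 recipients and sorted again as CD48- CD150+ CD45.2+ stem cells (n = 2 each). In both settings the cells sorted for mRNA-seq were GFP-positive, the mark of transduced cells, and each transplant library was pooled from several recipients. The common myeloid, granulocyte-macrophage and megakaryocyte-erythroid progenitors of young wild-type mice (CMP, GMP and MEP, n = 2 each) were labelled as 1 batch, and the sources used here do not give their sorting gates. Where nothing says that libraries of a group came from separate animals or cultures, p-values measure only the spread between these libraries, which may be technical. In sorted bulk samples, fewer cells of a type and less RNA per cell cannot be told apart.

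On build GRCm38, Epor (ENSMUSG00000006235) lies at chr9:21958897-21963506 on the minus strand, Csf1r (ENSMUSG00000024621) at chr18:61100598-61132149 on the plus strand and Csf2ra (ENSMUSG00000059326) at chr19:61223957-61228429 on the minus strand. Csf2rb (ENSMUSG00000071713) lies at chr15:78325752-78353847, Csf3r (ENSMUSG00000028859) at chr4:126024550-126044440, Il3ra (ENSMUSG00000068758) at chr14:14346275-14356011 and Tek (ENSMUSG00000006386) at chr4:94739289-94874976, all on the plus strand.

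Epor binds erythropoietin and is required for the survival of red cell precursors. Csf1r, the tyrosine kinase receptor of M-CSF and IL-34, marks the monocyte and macrophage line, and Csf3r binds G-CSF and drives neutrophil production. Csf2ra and Il3ra bind GM-CSF and IL-3 and signal through a shared beta chain, of which Csf2rb, the beta common chain, also serves IL-5. Mice carry a neighbouring, near-identical copy, Csf2rb2, which serves IL-3 alone, and reads that fit both copies make either count uncertain. Tek (Tie2) is the receptor tyrosine kinase of the angiopoietins and is found on endothelium and on HSCs. All of these receptors signal from the cell surface, most of them through JAK kinases and STAT factors.

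Levels are given in CPM, the count of a gene scaled by the library's total reads on genes, and levels of different genes are compared only per kilobase of exon (CPM per kb). A gene was called changed at a fold change above 1.5 with an adjusted p below 0.05, or with an unadjusted p below 0.05 after knockdown. Where a value without 1 library is given and its group had 2, the lone library left was assumed to vary like the other groups of the fit, and a call can then be lost with no smaller change. Total reads on genes ran from 20475764 to 24654742 in young and old HSC libraries, from 37292602 to 42737054 in the shRNA libraries and from 33177394 to 36510850 in the progenitors. Summed levels of 10 markers of long-term HSCs were 2756 to 2869 CPM in young HSCs, 2971 to 3601 CPM in old HSCs, 1507 to 2577 CPM in the shRNA libraries and 45.0 to 276 CPM in the progenitors. The libraries labelled MEP held 7803 to 8234 CPM of 12 erythroid markers but only 20.7 to 22.4 CPM of 8 megakaryocyte markers, with Gp1bb and Ppbp at 0, so they are called by their label here. The whole Btaf1 gene, whose count cannot separate its variants, was at 137 and 141 CPM in control cultures against 110 to 119 CPM with either shRNA, and at 161 and 165 CPM after transplantation of control cells against 118 to 139 CPM.

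The sequences below show the start sites and accessible elements that the chromatin results refer to. They are from the RefSeq tables and the genome of build GRCm38.p6, written 5′ to 3′ on the gene's strand for promoters, from 250 bases before to 50 after the start site, and on the plus strand for accessible regions. RefSeq promoter entries matched Epor, Csf2ra, Csf3r, Il3ra, Tek and Csf2rb2. Capitals mark matches, on either strand, to a GATA motif (AGATAA), a PU.1 motif (GAGGAA), a RUNX motif (TGTGGT) or an E-box (CANNTG).
Epor promoter, chr9:21963527-21963826, minus strand: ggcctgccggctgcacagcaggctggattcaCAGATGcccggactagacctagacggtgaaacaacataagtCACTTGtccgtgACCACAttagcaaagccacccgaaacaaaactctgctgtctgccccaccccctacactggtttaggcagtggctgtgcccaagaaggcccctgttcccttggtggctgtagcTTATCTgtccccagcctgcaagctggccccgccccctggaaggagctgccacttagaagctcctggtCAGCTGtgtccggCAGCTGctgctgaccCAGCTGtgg
Csf3r promoter, chr4:126024409-126024708, plus strand: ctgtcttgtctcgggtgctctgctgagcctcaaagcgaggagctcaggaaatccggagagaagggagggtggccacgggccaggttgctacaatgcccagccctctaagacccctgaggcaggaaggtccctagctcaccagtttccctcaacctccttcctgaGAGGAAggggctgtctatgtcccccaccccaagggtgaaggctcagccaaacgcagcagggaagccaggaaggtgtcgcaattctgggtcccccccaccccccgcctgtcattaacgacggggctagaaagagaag
Csf2rb2 promoter, chr15:78305672-78305971, minus strand: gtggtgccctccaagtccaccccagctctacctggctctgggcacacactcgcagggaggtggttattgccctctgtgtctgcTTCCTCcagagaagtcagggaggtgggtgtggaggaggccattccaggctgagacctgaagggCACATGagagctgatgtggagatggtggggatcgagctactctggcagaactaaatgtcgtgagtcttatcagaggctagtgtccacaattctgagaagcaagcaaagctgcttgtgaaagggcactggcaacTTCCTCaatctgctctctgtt
Il3ra intron region, chr14:14348327-14348626: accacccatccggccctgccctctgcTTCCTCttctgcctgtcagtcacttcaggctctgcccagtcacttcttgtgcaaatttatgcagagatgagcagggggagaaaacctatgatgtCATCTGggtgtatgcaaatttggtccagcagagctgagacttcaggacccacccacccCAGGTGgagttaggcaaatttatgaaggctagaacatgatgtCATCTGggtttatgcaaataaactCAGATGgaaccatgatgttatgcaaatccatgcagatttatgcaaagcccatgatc
Csf2ra upstream region, chr19:61232267-61232566: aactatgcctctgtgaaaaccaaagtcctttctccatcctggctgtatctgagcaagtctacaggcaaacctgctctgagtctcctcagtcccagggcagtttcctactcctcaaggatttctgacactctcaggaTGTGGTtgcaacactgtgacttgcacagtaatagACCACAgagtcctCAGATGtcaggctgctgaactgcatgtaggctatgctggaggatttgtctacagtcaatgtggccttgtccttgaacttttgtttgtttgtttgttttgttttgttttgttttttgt

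The Epor promoter held 1 GATA match, 54 bases before the start site, beside 1 RUNX match and 5 E-boxes, and it had no PU.1 match. The Csf3r promoter held 1 PU.1 match at 86 bases before the start site and no other match. Csf2rb2 had PU.1 matches at -167 and 29, and Csf2ra had a pair of adjoining ones at -14 and -8, the first of which overlaps an E-box by 1 base. Tek held a GATA match 36 bases into the transcript. The Il3ra promoter, with 35 CG pairs in 300 bases and 74.3% G and C, held none of these motifs, and none of the 6 promoters held a TATA box (TATAAA). Of 32851 RefSeq promoters of the same length, 11.2% held the GATA motif, 28.3% the PU.1 motif, 16.8% the RUNX motif, 72.3% an E-box and 13.6% the TATA box, so most of these matches are common ones. The Il3ra intron region held 4 E-boxes and 1 PU.1 match, and the Csf2ra upstream region held 2 RUNX matches and 1 E-box, against 78.2%, 37.4% and 28.4% of 127681 accessible regions with at least 1 E-box, PU.1 or RUNX match.

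In young HSCs, Csf3r, Tek and Csf2ra were the most abundant of the 7 receptors per length, at 29.8 ± 1.77, 25.1 ± 1.24 and 25.1 ± 0.347 CPM per kb (mean ± SD, n = 4). Epor followed at 8.28 ± 0.855 CPM per kb, and the other 3 lay lower, Csf2rb at 3.87 ± 0.538, Csf1r at 2.93 ± 0.144 and Il3ra at 2.73 ± 0.3002 CPM per kb. For scale, Kit, the receptor of stem cell factor, was at 209 CPM per kb. In old HSCs Csf3r was again highest, followed by Tek (23.95 ± 2.00 CPM per kb) and Csf2ra (23.3 ± 1.52), which lay within their spread of each other. Epor came next, then Csf1r and Il3ra, also within their spread, and last Csf2rb at 1.53 ± 0.323 CPM per kb (n = 8).

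With age, Csf2rb fell and Csf3r rose, and the other 5 receptors were not called. This was 2 of the 7 members, beside 7.52% of the 21522 genes tested. Csf2rb was at 23.8, 31.7, 25.96 and 31.2 CPM in the 4 young libraries and ran from 6.98 to 13.2 CPM in the 8 old ones, with a median of 11.9 CPM. Every old library was below every young one. The fitted change was -1.30 ± 0.14 on the log2 scale (log2 fold change ± SE, adjusted p = 5.41e-06, edgeR quasi-likelihood test), a 2.46-fold decrease.

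Csf3r moved the other way. Its level was 115, 99.6, 106 and 110.5 CPM in young libraries and 168 to 234 CPM in old ones, with a median of 194 CPM, so that every old library was above every young one. The change was 0.90 ± 0.08 on the log2 scale (adjusted p = 4.13e-07), a 1.87-fold increase, and Csf3r had the highest level per length of the 7 in old HSCs, at 54.2 ± 5.84 CPM per kb.

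Epor, the erythropoietin receptor, was lower in every old library (8.98 to 14.4 CPM, median 11.4) than in any young library (15.3, 17.0, 14.9 and 18.6 CPM). Its change of -0.45 ± 0.10 on the log2 scale passed the test (adjusted p = 0.00177) but, at 1.37-fold, not the fold limit. The remaining 4 overlapped between ages. Csf1r changed by -0.09 (adjusted p = 0.602), Csf2ra by -0.07 (0.448), Il3ra by 0.01 (0.979) and Tek by -0.03 (0.795) on the log2 scale. The standard error of these 4 changes was at most 0.10 on the log2 scale. The plot of young and old libraries shows the separation of Csf2rb, Csf3r and Epor and the overlap of the rest. The share of all genes without overlap between ages was not computed.

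**Figure D1:**
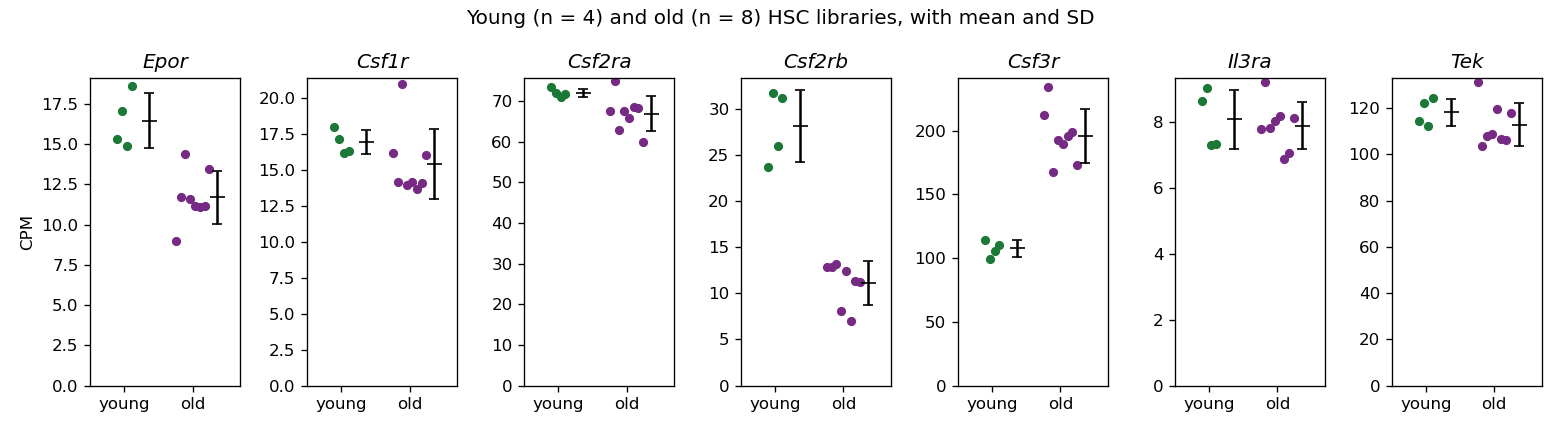
Level of each of the 7 receptors in CPM (linear axis from 0, own range per panel) in every young (n = 4, green) and old (n = 8, purple) HSC library, with the mean and SD as black bars. Csf2rb lies at 23.8 to 31.7 CPM in young and 6.98 to 13.2 CPM in old libraries, and Csf3r at 99.6 to 115 CPM in young and 168 to 234 CPM in old libraries.

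Csf2rb2, the IL-3 specific beta chain beside Csf2rb on chromosome 15, fell as well, from 18.8 to 21.8 CPM in young to 8.15 to 14.6 CPM in old libraries (-0.79 ± 0.12, adjusted p = 1.86e-05). The alpha chains that pair with the beta chains were not called, as young and old libraries overlapped for Il3ra and Csf2ra and neither passed the test. Among other stem cell receptors, Flt3, which marks progenitors with lymphoid potential, fell by 0.90 ± 0.10 on the log2 scale (adjusted p = 9e-07). Kit (-0.03, adjusted p = 0.766) and Tie1 (-0.07, 0.419) did not pass the test.

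Other cells in the sorted libraries were read from marker lists. Summed levels of 8 mature neutrophil markers were 189 and 106 CPM in young libraries 3 and 4 and 105 CPM in old library 2, against 3.98 to 11.4 CPM in the other 9. Without these 3 libraries the count was again 2 of 7, with Csf2rb at -1.29 (adjusted p = 0.000356) and Csf3r at 0.88 (adjusted p = 1.81e-06), while Epor moved to an adjusted p of 0.0567. The sum of 8 B cell markers was 84.4 to 153 CPM in young and 37.3 to 44.9 CPM in old libraries, that of 12 erythroid markers 191 to 261 CPM in young and 47.6 to 228 CPM in old ones, and that of 10 granulocyte and monocyte progenitor markers 165 to 198 CPM in young and 324 to 368 CPM in old ones, led by Prtn3. Basophil and mast cell markers summed to 2.16 to 4.92 CPM over the 12 libraries. None of the listed markers was at 0 in all libraries of either age, and their part in the receptor changes was not tested.

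Of 30 further cytokine receptors, 5 rose and 5 fell with age, where 7.52% of all genes were called. Their median log2 change was -0.06, against -0.01 over all genes. Osmr, the oncostatin M receptor, rose most (3.39 ± 0.16, from 3.47 to 35.4 CPM), with Il13ra1 (1.26), Il1r1 (1.18) and the growth hormone receptor Ghr (0.87). The largest decreases were those of Il9r (-3.66), Il5ra (-2.37) and Il1rl1 (-2.16), the receptor chains for IL-9, IL-5 and IL-33, whose means in young HSCs were 3.07, 1.35 and 3.15 CPM. Il13ra1, at 0.840 CPM in young and 2.00 CPM in old HSCs, lost its call without young library 1 (1.19), 2 (1.117) or 3 (1.00), and Il5ra lost it without the 3 libraries with neutrophil markers (-1.84, adjusted p = 0.0554).

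The lists of ligands and of genes downstream of the receptors are read against the same 7.52%. None of the 6 ligands tested was called, and 7 others, among them Epo, Csf2, Csf3 and Il3, were too low to test. Of 25 signal transducers only Pik3cd, a catalytic PI3-kinase subunit, was called (-0.68, adjusted p = 0.000728), and no JAK or STAT gene of the list was. Of 20 inhibitors of signalling, Socs3 rose (2.13 ± 0.28, from 11.8 to 50.5 CPM) and Socs2 (-1.70 ± 0.10, from 57.4 to 17.2 CPM) and Cish (-0.82) fell. Of 12 STAT5 target genes, Bcl6 (1.29), Pim2 (1.19) and Pim1 (0.70) rose and Id1 (-1.08) fell. Without the 3 libraries with neutrophil markers, Pik3cd (-0.52), Cish (-0.78), Bcl6 (1.11) and Pim1 (0.67) were no longer called. Cish also lost its call without any 1 of the young libraries (-0.78 to -0.85) or old library 5 (-0.79), and Pim1 without young library 1 (0.67) or 3 (0.68).

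Accessibility was compared at the same ages. ATAC-seq (n = 4 young and 4 old libraries, 15427933 to 26260337 reads in regions) had 27 accessible regions between 5000 bases before the start and the end of the 7 genes, of which 24 passed the level filter. Of these 24, 2 were called at a fold above 1.5 and an adjusted p below 0.01, beside 13% of 89245 regions tested. The sharper of them lies in an intron of Il3ra, with its centre 2202 bases into the gene (chr14:14348279-14348674, sequence above). It had 12.9, 14.1, 13.6 and 9.79 CPM in young libraries and 6.14, 6.48, 6.80 and 6.45 CPM in old ones, with no overlap (-0.97 ± 0.11, adjusted p = 6.63e-10, 1.95-fold lower).

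All 6 Il3ra regions had negative log2 changes, from -0.31 to -0.97. The promoter region, at 81.0 to 84.0 CPM in young and 60.2 to 70.0 CPM in old libraries, fell by 0.34 ± 0.05 (adjusted p = 1.52e-08) without reaching the fold limit, and Il3ra RNA differed by only 0.01 on the log2 scale. At Csf2ra, the strong region inside the gene went from 96.2 to 99.7 CPM in young to 70.8 to 81.4 CPM in old libraries (-0.36 ± 0.04, adjusted p = 1.23e-09), also under the fold limit. The region upstream of Csf2ra, its centre at -3987 bases from the start site (chr19:61232085-61232747) rose from 8.98, 10.2, 8.95 and 9.56 CPM to 12.5, 14.0, 14.1 and 17.3 CPM (0.62 ± 0.10, adjusted p = 2.09e-06, 1.53-fold), and lost its call without young library 3 (0.58) or old library 8 (0.53).

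Csf2rb and Csf3r, whose RNA was called, had no called region. All 4 Csf2rb regions had negative log2 changes, from -0.04 to -0.40, and none passed the test. Of the 24 tested regions of the 7 receptors, only 7 had positive changes. The region at the Csf3r start site had 13.3 to 15.9 CPM in young and 12.4 to 16.4 CPM in old libraries (0.03 ± 0.09, adjusted p = 0.868). The other Csf3r region changed by -0.16 (adjusted p = 0.667, edgeR). At the Csf2rb start site the levels were 6.88, 6.22, 6.95 and 8.19 CPM in young and 4.84, 4.32, 7.63 and 6.14 CPM in old libraries, which overlap (-0.32 ± 0.14, adjusted p = 0.0705). The Csf2rb2 start region, whose promoter is printed above, was lower in old HSCs (5.19 to 6.61 against 3.74 to 4.54 CPM, -0.59 ± 0.14, adjusted p = 0.000858, 1.51-fold), a call at the edge of the fold limit that was lost without young library 1 (-0.54) or 4 (-0.56) or old library 6 (-0.57), 7 (-0.54) or 8 (-0.58). Epor had 1 region with a change of -0.03, and in Tek an intron region 121694 bases into the gene rose from 7.67 to 9.01 CPM to 10.5 to 13.9 CPM (0.46 ± 0.11, adjusted p = 0.000749), under the fold limit.

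**Figure D2:**
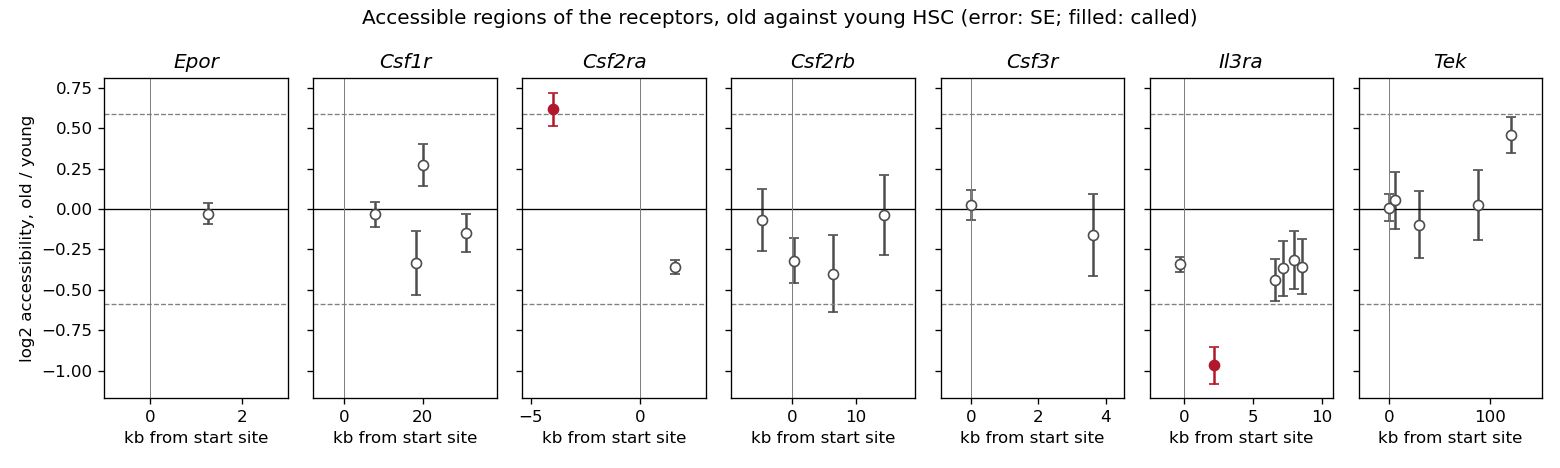
Log2 change in accessibility between old and young HSCs (vertical axis, with SE) of the 24 tested ATAC-seq regions against the distance of the region's centre from the start site in kb, 1 panel per receptor. Filled points passed the call rule, dashed lines mark a 1.5-fold change, and the called Il3ra point lies at -0.97 and the called Csf2ra point at 0.62.

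H3K27ac, a mark of active promoters and enhancers, had peaks at 6 of the 7 receptors and none assigned to Csf2ra. None of the 7 peaks changed by more than a ratio of 1.5 with every old against young pair above 1.2 in the same direction, beside 11.4% of 39557 peaks. Signal was given after scaling of each library to an equal number of reads. At Csf3r it was 3.79 and 3.85 in young and 4.23 and 4.72 in old libraries, a ratio of 1.17, and at Csf2rb 2.73 and 1.75 in young and 2.52 and 2.36 in old ones, a ratio of 1.09. The ratios of the other peaks ran from 0.936 at Csf1r to 1.19 at Epor. Il3ra had the strongest signal, at 12.1 and 10.0 in young libraries.

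**Figure D3:**
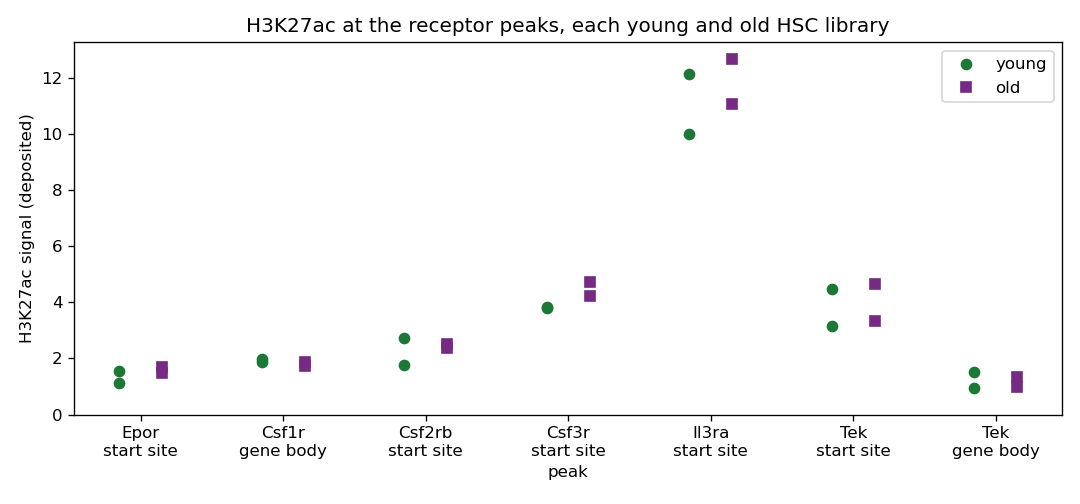
Deposited H3K27ac signal (vertical axis, from 0) in each young (circles, n = 2) and old (squares, n = 2) HSC library at the 7 peaks assigned to the receptors. Young and old values overlap at every peak but that of Csf3r (3.79 and 3.85 in young, 4.23 and 4.72 in old), and Il3ra is highest.

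In young HSCs the promoter mark H3K4me3 was at 21.6 ± 0.438 for Il3ra, 13.9 ± 0.944 for Epor, 13.4 ± 0.949 for Tek, 7.69 ± 0.644 for Csf3r and 5.75 ± 0.802 for Csf2rb (mean ± SD, n = 2), where the median of all 33199 peaks was 5.37. Csf1r had a gene-body peak alone, at 1.38 ± 0.0600, above only 7.80% of peaks. The repressive mark H3K27me3 was assigned to Epor and to no other receptor of the 7. Its domain began near the Epor start site and ran upstream (chr9:21963000-22000999), with signals of 1.29 and 1.32, above 98.9% of 55820 peaks. That signal is given for the whole domain of 37999 bases, most of it outside the gene. Both marks were thus assigned to Epor, but the H3K4me3 peak (chr9:21961427-21963100) met the domain only at its edge. Bulk data do not show whether the same cells carried both. The order of H3K4me3 did not follow that of RNA. Il3ra had the strongest mark, while its RNA level per length was the lowest, within the spread of that of Csf1r.

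In cultured old HSCs, knockdown of Btaf1 left all 7 receptors within 1.5-fold, and none was called, where 3.79% of 19763 genes were. By adjusted p at any fold, 3 of 7 passed, beside 9.89% of genes. Csf3r was at 92.4 and 83.1 CPM in control cultures and at 118, 120, 117 and 116 CPM with shRNA (0.41 ± 0.05, adjusted p = 5.23e-07). Csf2rb was at 82.7 and 80.9 CPM in controls and at 105, 98.6, 104 and 108 CPM with shRNA (0.33 ± 0.05, adjusted p = 1.19e-05). Epor was at 22.1 and 21.6 CPM in controls and at 17.1, 16.3, 17.9 and 16.8 CPM with shRNA (-0.38 ± 0.09, adjusted p = 0.00353). In all 3 the groups did not overlap, and the share of all genes without overlap was not computed. Both hairpins gave changes of like size, -0.42 and -0.34 for Epor, 0.29 and 0.36 for Csf2rb and 0.41 and 0.40 for Csf3r. Between shRNA2 and shRNA1 the difference was at most 0.08 on the log2 scale.

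The other 4 did not pass adjustment in culture. Csf2ra changed by 0.17 (adjusted p = 0.177) and Tek by 0.16 (0.109), with every shRNA library above both controls, and Il3ra by -0.05 (0.864) and Csf1r by -0.13 (0.520), with overlap. Csf2rb2 followed Csf2rb, from 28.8 and 29.8 CPM to 35.98 to 39.8 CPM (0.37 ± 0.07, adjusted p = 0.00047). Of the other receptors, Il13ra1 rose (0.69) and Ifngr2, the interferon gamma receptor beta chain, fell (-0.81, from 30.1 to 17.4 CPM) with Lifr (-0.66), 3 of 26 tested. The Lifr call was lost without shRNA1 replicate 1 (-0.49). Kitl, from 1.28 to 0.618 CPM, fell (-1.12) among 5 ligands, and this call was lost without control replicate 1 (-0.78). No transducer of 24 or inhibitor of 19 was called, and of 12 STAT5 targets Bcl6 rose (1.54) and Tfrc, the transferrin receptor, fell (-0.74, from 110.0 to 66.7 CPM). Mature neutrophil markers in these cultures summed to 0.781 to 2.20 CPM, with S100a8, S100a9 and Ngp at 0 in all 6 libraries. The sums of 5 of the 10 marker lists did not overlap between control and shRNA cultures. Erythroid markers, led by the globin gene Hbb-bt, summed to 111 and 114 CPM in controls and 73.2 to 97.0 CPM with shRNA, lower as Epor was. The granulocyte and monocyte progenitor markers, led by Prtn3, summed to 179 and 187 CPM in controls and 203 to 256 CPM with shRNA, and 8 macrophage markers to 30.9 and 31.9 CPM and 42.3 to 47.2 CPM, higher as Csf3r and Csf2rb were. Most of the macrophage sum was Cd68, a lysosomal protein, while C1qa, C1qb and Vcam1 were at 0 in all 6 libraries. The 10 markers of long-term HSCs summed to 1613 and 1623 CPM in controls and 1507 to 1591 CPM with shRNA, and 6 T and NK cell markers, led by Nkg7, to 35.9 and 37.4 CPM and 18.7 to 25.1 CPM. The part of these in the receptor values was not tested.

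After transplantation the same contrast called Csf2rb alone, 1 of 7, where 2.4% of 20350 genes were called. Csf2rb was at 15.02 and 9.68 CPM in control HSCs, at 14.6 and 25.6 CPM with shRNA1 and at 27.3 and 24.8 CPM with shRNA2 (0.88 ± 0.25, unadjusted p = 0.00849, adjusted p = 0.538, edgeR). The first shRNA1 library lay within the controls, and the shRNA2 libraries lay above both. Without control replicate 2 the change was 0.60 (unadjusted p = 0.0683) and was not called. By adjusted p no gene of any kind passed, while 7.41% of genes had an unadjusted p below 0.05. Summed mature neutrophil markers varied widely here, 109 and 6.28 CPM in controls, 538 and 167 CPM with shRNA1 and 80.4 and 407 CPM with shRNA2. Macrophage markers summed to 41.7 and 43.6 CPM in controls, 32.8 and 40.4 CPM with shRNA1 and 70.9 and 85.5 CPM with shRNA2. The part of both in the Csf2rb value was not tested.

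Csf3r, at 203 and 131 CPM in transplanted controls and 128 to 178 CPM with shRNA, overlapped (-0.16 ± 0.19, adjusted p = 0.907). Epor changed by -0.23, Csf1r by 0.16, Csf2ra by -0.16, Il3ra by 0.31 and Tek by 0.08 on the log2 scale, with adjusted p from 0.802 to 0.937, and their groups overlapped. No receptor of 25, ligand of 6, transducer of 25 or inhibitor of 20 was called, and of 12 STAT5 targets only Id1 was (0.66, unadjusted p = 0.0114), a call lost without control replicate 2 (0.60) or shRNA1 replicate 1 (0.57).

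The difference between the knockdown effects was tested itself, and none of the 7 receptors passed an adjusted p of 0.05, beside 0.9% of 21443 genes. The effect after transplantation minus that in culture was 0.55 ± 0.31 for Csf2rb (adjusted p = 0.576) and -0.56 ± 0.25 for Csf3r (adjusted p = 0.452). Without transplanted control replicate 2 the Csf3r difference was -0.84. With no filter on low counts Csf2rb (adjusted p = 0.000115, edgeR interaction) and Csf3r (1.68e-08) both passed, at unchanged log2 values of 0.55 and -0.56. Over all genes, 947 passed without the filter and 193 with it, so the p-values moved and the effects did not.

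Between control HSCs in culture and after transplantation, 6 of 7 receptors were called, beside 25.3% of genes. Csf2rb was 7.24-fold higher in culture (82.7 and 80.9 against 15.02 and 9.68 CPM, 2.86 ± 0.27, adjusted p = 4.79e-05), and Epor was 2.44-fold higher (22.1 and 21.6 against 8.64 and 11.04 CPM, 1.29 ± 0.23). Csf2ra was 2.14-fold lower in culture (25.2 and 27.9 against 58.0 and 67.0 CPM, -1.10 ± 0.13), and Tek 2.04-fold lower (40.8 and 39.0 against 86.5 and 92.3 CPM, -1.03 ± 0.08). The alpha and beta chains of the GM-CSF receptor thus differed in opposite directions.

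Csf3r (-0.79, adjusted p = 0.0149) and Il3ra (0.60, adjusted p = 0.0239) were called but lost the call without culture control 1 (-0.87 and 0.58), culture control 2 (-0.71 and 0.61) or transplanted control 1 (-0.45 and 0.36), and Csf1r was not called (0.47, adjusted p = 0.178). Kit (-1.07) and Flt3 (-2.84) were lower in culture and Csf2rb2 (2.11) higher. Of the other lists, read beside the same 25.3% of all genes, 6 of 26 receptors were higher in culture, Il10ra (3.68) among them, and 5 lower, 2 of 6 ligands were lower (Angpt1, -1.48, and Csf1, -1.29), 1 of 25 transducers was higher (Pik3cd, 1.04) and 2 lower, 5 of 20 inhibitors were higher (Socs2, 1.24) and 3 lower (Cblb, -0.80), and 5 of 12 STAT5 targets were higher (Id1, 4.63, and Pim2, 3.47) and 2 lower (Bcl6, -2.45). The setting cannot be told apart from the days in culture, the sorting gate and the preparation of the libraries. Erythroid markers, higher in culture as Epor was, summed to 111 and 114 CPM in cultured and 35.5 and 81.5 CPM in transplanted controls. Markers of long-term HSCs, lower in culture as Tek was, summed to 1613 and 1623 against 2148 and 2577 CPM, and 9 endothelial markers to 93.0 and 98.2 against 104 and 126 CPM. Megakaryocyte markers summed to 1635.5 and 1637.5 CPM in cultured against 1083 and 1089 CPM in transplanted controls. Mature neutrophil markers summed to 1.83 and 2.15 CPM in cultured controls against 109 and 6.28 CPM in the transplanted controls 1 and 2, whose Csf3r levels were 203 and 131 CPM. Granulocyte progenitor markers summed to 179 and 187 CPM in cultured and 231 to 331 CPM in transplanted controls and macrophage markers to 30.9 and 31.9 against 41.7 and 43.6 CPM. B cell markers were at 17.4 and 18.7 against 30.3 and 32.6 CPM, T and NK cell markers at 35.9 and 37.4 against 57.2 and 63.8 CPM, and basophil and mast cell markers at 27.4 and 34.0 against 8.22 and 13.5 CPM, led by Gzmb in culture and by Cpa3 after transplantation. The part of these lists in the receptor values was not tested. The plot of fitted changes sets these sizes beside those of age and knockdown.

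**Figure D4:**
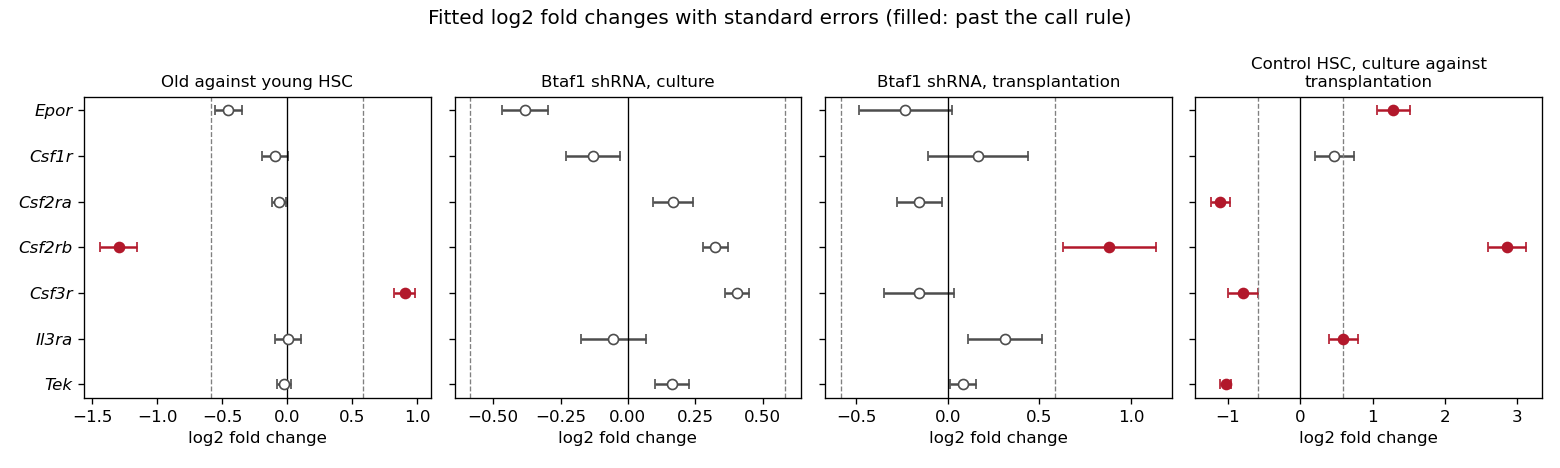
Fitted log2 fold changes (horizontal axis, own range per panel) with standard errors for the 7 receptors in 4 comparisons: old against young HSCs, Btaf1 shRNA against control in culture and after transplantation, and control HSCs in culture against transplantation. Filled points passed the call rule of that comparison and dashed lines mark a 1.5-fold change; Csf2rb is at -1.30 with age and at 2.86 between the settings.

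The progenitors were compared with each other within their batch. In GMPs against CMPs, 4 of 7 were called, beside 16.7% of 18234 genes. Csf2ra rose from 61.7 and 49.0 CPM in CMPs to 132 and 122 CPM in GMPs (1.42 ± 0.10, adjusted p = 6.58e-07) and Csf3r from 140 and 118 CPM to 213 and 201 CPM (0.90 ± 0.08, adjusted p = 1.97e-06). Epor fell from 17.4 and 21.4 CPM to 0.310 and 0.543 CPM, 29 reads in both libraries together (-5.29 ± 0.19, adjusted p = 1.79e-09), and Tek from 26.5 and 26.6 CPM to 1.80 and 1.63 CPM (-3.73 ± 0.28, adjusted p = 1.79e-06). Csf1r (0.39) and Csf2rb (0.48) passed the test under the fold limit, and Il3ra (0.38, adjusted p = 0.0773) did not pass it.

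All 7 receptors were called in the libraries labelled MEP against CMPs, beside 46.7% of genes, and all 7 against GMPs, beside 43.7%. Epor, at 188 and 196 CPM, was the only one higher (3.42 ± 0.10 against CMPs and 8.71 ± 0.16 against GMPs). The beta chain Csf2rb was nearly absent, at 0.113 and 0.170 CPM or 10 reads in both libraries together, against 81.3 and 91.0 CPM in CMPs (-9.10 ± 0.18). Csf3r was at 0.394 and 0.509 CPM (-8.03 ± 0.15 against CMPs), Tek at 0.169 and 0.736 CPM (-5.75 ± 0.34) and Il3ra at 1.18 and 0.679 CPM (-4.36 ± 0.22). Csf1r, at 13.5 and 14.1 CPM (-3.72 ± 0.09), and Csf2ra, at 7.49 and 7.89 CPM (-2.73 ± 0.12), remained measurable. The fitted changes of Csf2rb, Csf3r and Tek rest on 10, 32 and 32 reads in MEPs, and their sizes are less certain than those of the other receptors.

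Marker lists differed between the progenitors as well. Erythroid markers, highest in MEPs as Epor was, summed to 372 and 384 CPM in CMPs and 10.9 and 17.7 CPM in GMPs. Markers of long-term HSCs summed to 276 and 268 CPM in CMPs, 45.0 and 56.4 CPM in GMPs and 110 and 122 CPM in MEPs, and megakaryocyte markers to 706 and 742 CPM in CMPs and 73.0 and 116 CPM in GMPs. Granulocyte and monocyte progenitor markers, led by Mpo in all 3 groups, summed to 20007 and 16564 CPM in CMPs, 59588 and 58299 CPM in GMPs and 42.1 and 16.6 CPM in MEPs, in the order that Csf3r and Csf2ra also had. T and NK cell markers, nearly all Nkg7 in CMPs and GMPs, had that order too, at 354 and 344 CPM in CMPs, 707 and 739 CPM in GMPs and 2.99 and 3.45 CPM in MEPs. Macrophage markers, lowest in MEPs as Csf1r was, summed to 67.8 and 65.9 CPM in CMPs, 76.3 and 78.3 CPM in GMPs and 8.53 and 10.7 CPM in MEPs. Basophil and mast cell markers, lowest in MEPs as Il3ra and Csf2rb were, summed to 372 and 368 CPM in CMPs, 199 and 352 CPM in GMPs and 1.13 and 0.934 CPM in MEPs. Endothelial markers summed to 53.4 and 51.9 CPM in CMPs, 18.6 and 21.9 CPM in GMPs and 56.9 and 70.6 CPM in MEPs, where Tek was lowest. Mature neutrophil markers were at 74.7 and 61.8, 23.4 and 39.3, and 17.8 and 8.94 CPM in the same groups, and B cell markers at 40.2 and 43.7, 40.9 and 42.5, and 5.60 and 3.93 CPM. The part of these lists in the receptor values was not tested.

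Of 27 other receptors tested, 5 rose, 7 fell and 15 were not called in GMPs against CMPs, beside 16.7% of genes called (median -0.43, against 0.01 over all genes). In the libraries labelled MEP against CMPs, 1 rose and 23 fell, beside 46.7% (median -2.99, against -0.07). Flt3 fell in both, by 3.46 in GMPs and by 7.73 in MEPs, and Il1rl1, the IL-33 receptor, was the 1 receptor that rose in MEPs (1.19, from 42.9 to 89.9 CPM), a call lost without CMP library 1 (1.07) or 2 (1.27) or MEP library 2 (1.02). Of 25 transducers, Stat5a (-0.94) and Stat5b (-0.68) were among 5 that fell in GMPs, and Gab1 (1.60), Irs2 (1.44) and Shc1 (0.92) were the 3 that rose in MEPs, where 10 fell, Jak3 (-3.24) and Stat3 (-2.71) among them. Of 12 STAT5 targets, 2 rose in GMPs (Id1, 1.48, and Tfrc, 1.13) and 3 fell. In MEPs 7 of the 12 fell, Id1 (-5.22), Bcl6 (-2.75), Ccnd2 (-1.84) and Bcl2l1 (-1.43) among them, and only Tfrc rose (2.97, from 108 to 783 CPM). Of 19 inhibitors none rose and 4 fell in GMPs and 11 fell in MEPs.

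Young HSCs were set beside CMPs in a fit of their own, where 6 of 7 receptors were called, beside 64.3% of 25716 genes. The HSC and progenitor libraries were deposited separately, which cannot be told apart from the cell type, and the median log2 change over all genes was 0.49. Csf1r was lowest against CMPs (16.2 to 18.0 against 206 and 188 CPM, -3.90 ± 0.07), then Csf2rb (-1.97 ± 0.09) and Il3ra (-1.72 ± 0.14). Tek was higher in HSCs (112 to 124 against 26.5 and 26.6 CPM, 1.80 ± 0.12). Csf2ra did not pass (0.02, adjusted p = 0.80), at 71.0 to 73.4 CPM in young HSCs against 61.7 and 49.0 CPM in CMPs. The fits scale libraries by TMM, which set these changes below those in plain CPM. Csf3r was at 99.6 to 115 against 140 and 118 CPM, and Epor, at 14.9 to 18.6 against 17.4 and 21.4 CPM, overlapped. Csf3r (-0.62) and Epor (-0.59) lay at the fold limit and fell below it with DESeq2 (-0.50 and -0.47). Csf3r also lost the call without young library 2 (-0.58) or CMP library 1 (-0.49), and Epor without young library 1 (-0.57) or 3 (-0.55) or CMP library 2 (-0.45). Granulocyte and monocyte progenitor markers summed to 165 to 198 CPM in young HSCs against 16564 and 20007 CPM in CMPs, and basophil and mast cell markers to 2.16 to 4.35 against 368 and 372 CPM, lower as Csf1r, Csf2rb and Il3ra were. T and NK cell markers summed to 9.37 to 12.1 against 344 and 354 CPM, and erythroid markers to 191 to 261 against 372 and 384 CPM. Markers of long-term HSCs summed to 2756 to 2869 against 268 and 276 CPM and endothelial ones to 148.5 to 163 against 51.9 and 53.4 CPM, higher as Tek was. Megakaryocyte markers (1520 to 1627 against 706 and 742 CPM) and B cell markers (84.4 to 153 against 40.2 and 43.7 CPM) were also higher in young HSCs. Macrophage and mature neutrophil markers overlapped. The part of these lists was not tested.

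Over all 11 groups the highest group mean exceeded the lowest 25.1-fold for Il3ra, 18.9-fold for Csf1r and 16.5-fold for Csf2ra. The ratio was larger for Csf2rb, Csf3r, Epor and Tek, but their lowest groups rest on 10, 32, 29 and 32 reads in both libraries together, so no ratio of means is given, and the fitted changes above that use these groups have the same limit. Epor was highest in MEPs (192 CPM) by far and next in control cultures (21.9 CPM), and lowest in GMPs. Csf1r was highest in GMPs and CMPs, which overlapped, and lay between 11.7 and 16.9 CPM in the other 9 groups, with neighbours overlapping throughout. Csf2ra led in GMPs, followed by young HSCs (72.0 CPM) and old HSCs, which overlapped, and it was lower in the cultures (26.6 to 31.1 CPM) than after transplantation (53.4 to 62.5 CPM).

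Csf2rb was highest in the shRNA2 cultures (106 CPM) and GMPs (104 CPM), which overlapped, and old HSCs (11.1 CPM) and transplanted controls (12.4 CPM), also overlapping, were the lowest groups above MEPs. Csf3r was highest in GMPs (207 CPM) and old HSCs (196 CPM), whose libraries overlapped, and in the transplanted groups (142 to 167 CPM), while young HSCs (108 CPM) were above only control cultures (87.7 CPM) and MEPs. Il3ra was highest in GMPs and CMPs and lay at 7.12 to 9.90 CPM in the 8 HSC groups. Tek was highest in young and old HSCs (118 and 113 CPM, overlapping), then in the transplanted groups, the cultures (39.9 to 46.3 CPM) and CMPs. These orders are in CPM, without the TMM scaling of the fits, and the plot of levels by group shows them.

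**Figure D5:**
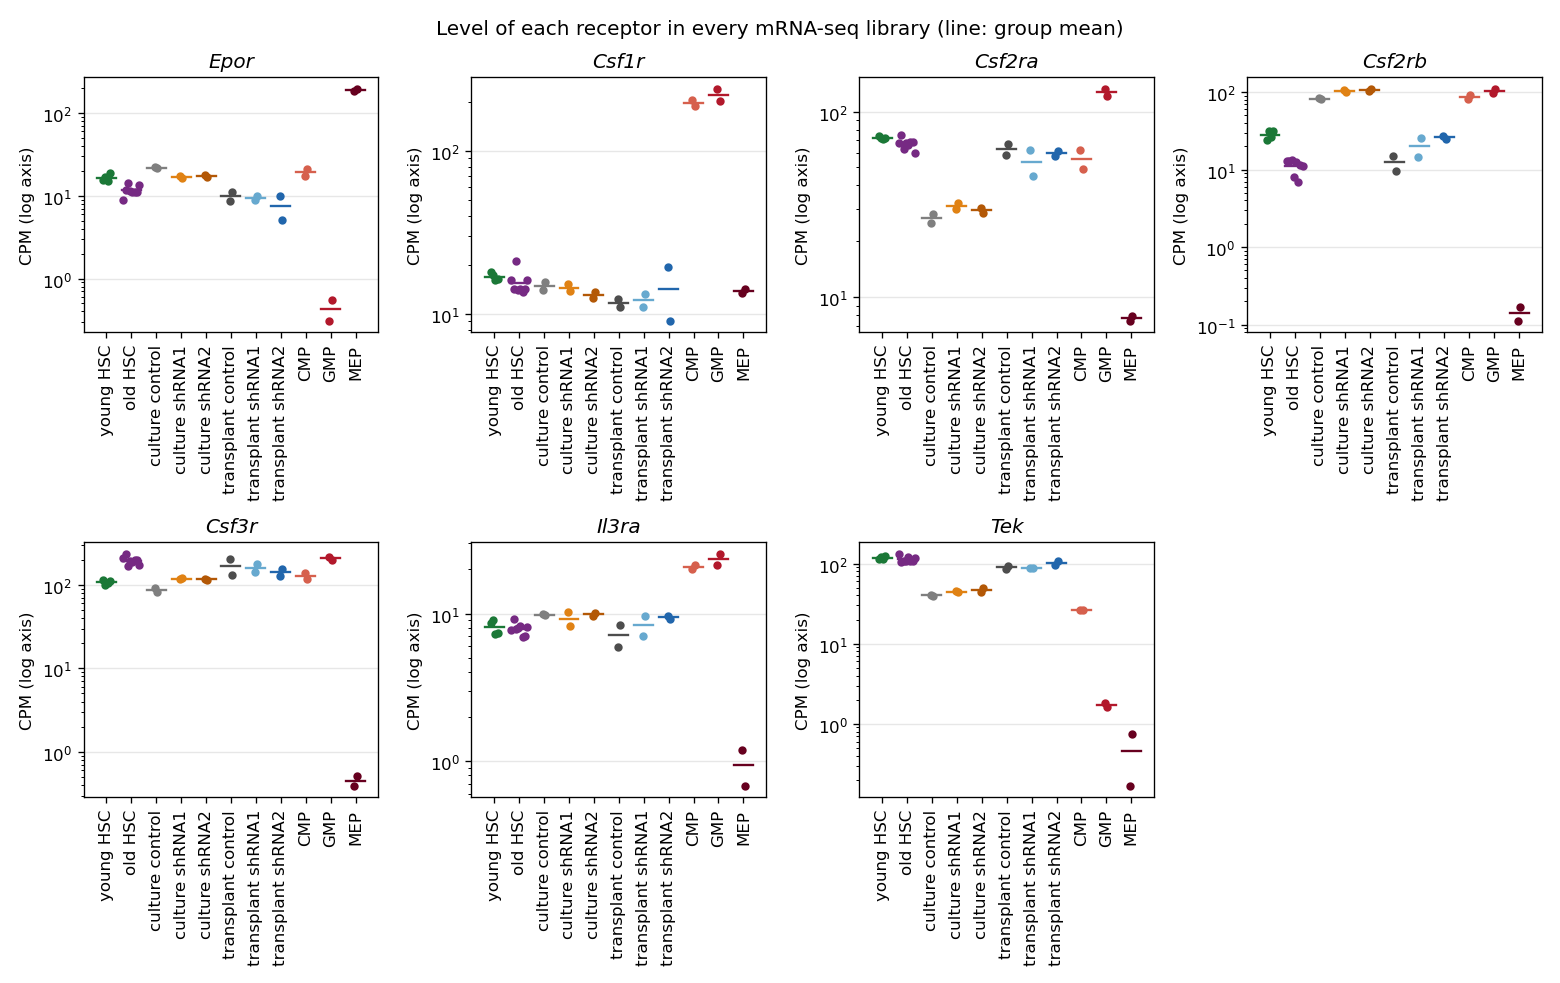
Level of each receptor in CPM (log axis) in every library of the 11 mRNA-seq groups, with a line at the group mean. Epor peaks in MEPs at 188 and 196 CPM, where Csf2rb (0.113 and 0.170 CPM) and Csf3r (0.394 and 0.509 CPM) are at their lowest, and Tek is highest in young and old HSCs.

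Pearson r was taken across the 11 group means on the log2(CPM + 1) scale, as a description of groups that share library preparations. It was 0.88 for Csf2rb and Il3ra, 0.85 for Csf2ra and Csf3r, and -0.90 and -0.82 for Epor with Csf2ra and Csf3r. MEPs had the highest mean of Epor and the lowest of the other 4 genes, and r without MEPs was not computed. Among the HSC groups alone, Csf2rb ran from 11.1 to 106 CPM while Il3ra lay at 7.12 to 9.90 CPM. Tek was nearest to Csf3r (0.66). The genes most like each receptor among 13638 genes with at least 5 CPM in a group were Aqp1, Pheta2 and Eif4enif1 for Epor (r = 0.979, 0.966 and 0.962), Gm30489, F13a1 and Mcpt8 for Csf1r (each 0.996) and Hfe, Slc31a2 and Ccdc125 for Csf2ra (0.995, 0.983 and 0.982). For Csf2rb they were Anxa2, Tpm4 and Gm22953 (0.974, 0.957 and 0.957), for Csf3r Naglu, Pstpip1 and Alox5ap (0.992, 0.990 and 0.989), for Il3ra Tacc1, Ticam2 and Man2b1 (0.996, 0.988 and 0.984) and for Tek B230354K17Rik, Adgrg1 and Pde4b (0.994, 0.993 and 0.992). Aqp1, a red cell water channel, was at 1165 CPM in MEPs and 2.05 CPM in GMPs, and F13a1, a monocyte transglutaminase, at 1208 CPM in GMPs and 0.480 CPM in MEPs. The adhesion receptor Adgrg1 was at 4187 and 4560 CPM in young and old HSCs and at 218 CPM in MEPs.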

How the data were processed

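The 7 members and the lists were chosen with earlier results of these data known. Raw gene counts were made by the authors with trim galore, cutadapt, STAR (mm10, GENCODE M22) and featureCounts, and ATAC-seq counts per merged MACS region with BWA. The sources used here do not give the STAR and strand settings. Deposited ChIP-seq signal was scaled by the authors to equal read numbers, and their fold change columns were not used. Counts were tested with edgeR 4.0.16 (TMM, filterByExpr, robust quasi-likelihood, Benjamini-Hochberg over all genes), which was tested on simulated data. DESeq2 1.42.0, limma 3.58.1, other size factors, no filter, a 2-fold limit, each library left out and the replicate number as a block were alternatives, and 3 libraries were left out as an alternative chosen after seeing the data. Regions needed more than 1.5 CPM in 4 libraries. CPM divides by all gene reads, without spike-ins (6.05 to 6.93% of reads in young and old HSCs). Exon lengths are from GENCODE on GRCm38. The 8 per-sample columns that no sample label names (4 ATAC-seq, 4 histone) were not used. Labels and methods name different kits for HSC libraries. Intervals and errors cover these libraries alone. Named were the 7 members, Csf2rb2, Kit, Flt3, Tie1, the called list genes (at most 4 per list and direction) and the 3 most similar genes; 1 further gene of the lists is not reported here. No libraries of a group agreed within sampling noise (lowest chi-square per degree of freedom 3.95).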

Additional observations from a re-analysis of the deposited data

Results flagged for a closer look

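In 4 of 66 groups of 4 or 8 libraries a library stood apart from the rest of its group, where chance flags about 1 in 20. They were Csf1r in old library 3 (21.0 CPM, the others 13.7 to 16.2), where the macrophage markers also summed to 165 CPM against 36.1 to 68.9 CPM in the other 7 old libraries, the Epor region in an old ATAC-seq library (33.8 CPM), a Csf1r region in a young one (3.92 CPM) and the far Tek intron region in an old one (13.9 CPM). Kit, the stem cell factor receptor, responded to knockdown differently in the settings, with an effect after transplantation 0.38 lower than in culture (-0.38 on the log2 scale, adjusted p = 0.0147, edgeR interaction). That call was lost without culture control 1 (-0.40, adjusted p = 0.101), culture control 2 (-0.37, 0.121) or culture shRNA1 replicate 1 (-0.38, 0.0524). In culture the hairpins also differed from each other for this gene, Kit being lower with shRNA2 than shRNA1 (-0.28, adjusted p = 1.35e-06).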

How the results depend on the processing

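Of 791 values of the 7 receptors under alternatives, 748 kept direction and call, 24 lost the call, 3 gained one and 16 reversed. With a 2-fold limit, 1 receptor was called with age (873 genes), 337 genes after knockdown in culture, 0 receptors after transplantation (294 genes), 3349 genes between settings, 1905 between GMPs and CMPs, and 0 receptor regions (4823 regions). By adjusted p, knockdown called 340 genes in culture and, after transplantation, 0 receptors and 0 genes. With no filter, 1086 genes were called after transplantation, and the effects differed for 2 receptors and 947 genes. shRNA2 alone called 768 genes after transplantation. Receptor regions inside genes alone gave 1 call, and no count was made over all regions inside genes. Leaving out 1 library gave 0 to 1 receptors after transplantation, 0 to 1 (38 to 423 genes) for the difference, 4 to 6 between settings, 5 to 6 between young HSCs and CMPs and 1 to 2 regions.

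Small changes reversed sign. Il3ra with age was -0.0003 with DESeq2 size factors and -0.14 without the 3 libraries with neutrophil markers, and Tek 0.0043. With shRNA2 alone Il3ra in culture was 0.0078, and Flt3 after transplantation 0.22, and with shRNA1 alone Tek was -0.0179. The cause was not tested. With 1 library left out, values crossed 0 with age for Il3ra (-0.0359 to 0.0536) and Tek (-0.0621 to 0.0042), in culture for Il3ra (-0.1387 to 0.0231), after transplantation for Csf1r (-0.1637 to 0.382), Csf3r (-0.4367 to 0.1904) and Flt3 (-0.3591 to 0.1228), for the difference of the effects for Epor (-0.1303 to 0.3537), Csf1r (-0.0337 to 0.5211), Csf2rb2 (-0.0903 to 0.6347) and Tie1 (-0.0693 to 0.0319), between GMPs and CMPs for Csf2rb2 (-0.2577 to 0.0801) and between HSCs and CMPs for Csf2ra (-0.1493 to 0.1977).

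Replicate numbers are not stated to pair samples, and deviations of same-numbered libraries correlated at -0.226 to 0.058. With the replicate block, all 56 receptor values kept their call and 1421 genes were called with age, while Il13ra1 (1.34), Pik3cd (-0.67), Socs3 (2.17), Pim2 (1.21) and Pim1 (0.68) lost theirs. Depth limits Csf2rb in MEPs, which rests on 10 reads.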
